A study of Mus musculus with 9 samples.

Results

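The genes that encode the subunits of the mitochondrial respiratory chain and ATP synthase were followed in injured mouse spinal cord. Protein-coding genes were taken by symbol from the GENCODE annotation: Ndufa, Ndufb, Ndufc, Ndufs and Ndufv genes with a number, Sdha to Sdhd, genes starting with Uqcr, numbered Cox subunit genes from 4 to 8 with a letter a, b or c, genes starting with Atp5, and the mitochondria-encoded mt-Nd, mt-Co, mt-Cytb and mt-Atp genes. Of the 52550 genes in the table, 95 met this rule, 82 encoded in the nucleus and 13 in mitochondrial DNA (mtDNA). No expression value entered the choice.

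The mice were adult C57BL/6N females, and cord RNA was taken for sequencing 7 days after surgery from 3 mice in each of 3 groups. Sham mice had the vertebral lamina removed and no injury. SCI mice received a contusion of the thoracic cord and daily intraperitoneal vehicle (DMSO), and SCI+FIPI mice received the same contusion and daily intraperitoneal FIPI, an inhibitor of phospholipase D (PLD). The comparison of SCI with Sham asks what injury with vehicle did to these transcripts, and that of SCI+FIPI with SCI asks whether the inhibitor changed them. Each library is a bulk extract of cord around the injury and mixes neurons, glia, vessels and infiltrating cells, so fewer cells of a type and less RNA per cell cannot be told apart.

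Oxidative phosphorylation couples electron transfer to ATP synthesis in the inner mitochondrial membrane. Complexes I and II pass electrons from NADH and succinate to ubiquinone, complex III passes them to cytochrome c, complex IV reduces oxygen, and complex V uses the resulting proton gradient to make ATP. Complexes I, III, IV and V are built from both genomes, while complex II is encoded by nuclear genes alone. In the central nervous system this pathway supplies most of the ATP that neurons spend on ion pumping and synaptic transmission.

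Total counts lay between 20806000 and 24582377 per mouse. The labelled tissue carried its defining markers, with the 16 neuron markers summing to 9854 to 10999 CPM (counts scaled to a common library size) in Sham and 3318 to 4442 in SCI, and the 10 oligodendrocyte markers to 33458 to 35054 and 23681 to 26386. In SCI+FIPI the neuron sum was 5137 to 6017 CPM. Microglia and macrophage markers summed to 1588 to 2063 CPM in Sham, 23528 to 27759.6 in SCI and 16187 to 22541 in SCI+FIPI. Of the 95 subunit genes, 91 passed the filter on low counts and were tested, and Cox7b2, Cox8b, Cox8c and mt-Atp8 did not pass. Changes are log2 fold changes from edgeR's quasi-likelihood fit to all genes, and a gene was called, or said to fall or rise, where the change reached 0.5 in either direction and the p adjusted by Benjamini-Hochberg over all genes lay under 0.05. Its p-values measure the spread between these mice only. A value after ± is a standard error of that fit unless marked SD. Exact permutation tests of 3 mice against 3 cannot go below p = 0.1, and they gave 0.1 wherever groups did not overlap.

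After injury, transcripts of the subunits were mostly lower. In this fit those encoded in mtDNA were lower by more than those encoded in the nucleus. That gap was nearly absent when GC content and gene length were adjusted for, as given below. In SCI against Sham, 30 of the 79 nuclear genes tested fell, 5 rose and 44 were not called, with a median log2 fold change of -0.38. Of the 12 mtDNA genes tested, 10 fell and 2 were not called, with a median of -0.79. The 12 include 5 genes whose levels are uncertain for reasons given below. The other 7 all fell, with a median of -0.74. Over all 18699 genes tested the median was -0.003. Together 40 of 91 members fell (44.0%), where 22.5% of all genes tested were called lower and 24.4% higher. Calls in either direction took 49.5% of members against a background of 47.0%, so the members stood out by direction and not by how many were called. Without the fold limit, 58 nuclear genes were lower and 9 higher at an adjusted p under 0.05, where the background was 32.4% lower and 33.5% higher. The neuron markers moved the same way, with 15 of 16 called lower at a median of -1.47, and their part in the fall of the subunits was not tested.

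**Figure D1:**
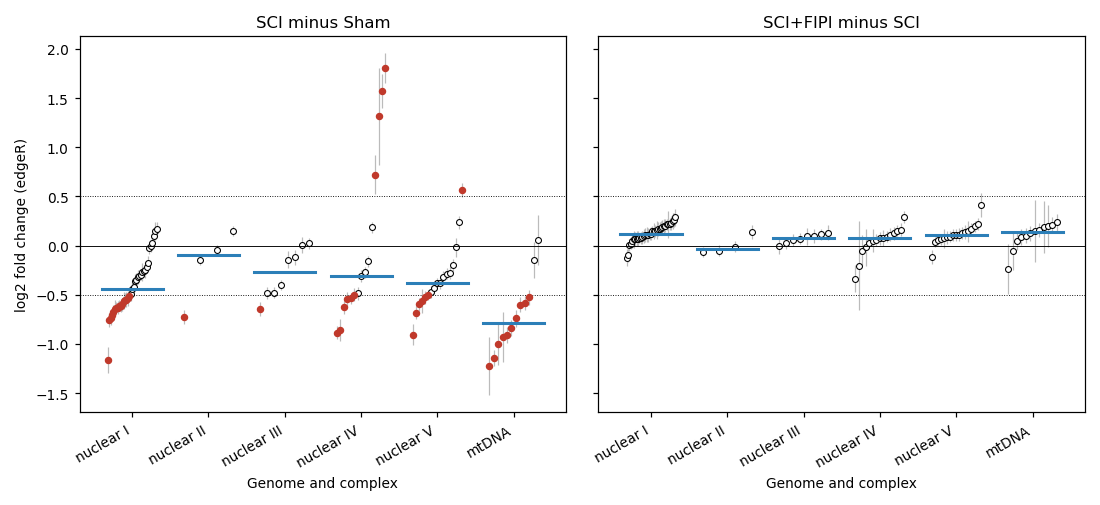
Log2 fold change with its standard error (edgeR) of each of the 91 tested genes, by genome and complex, for SCI minus Sham (left) and SCI+FIPI minus SCI (right). Filled red points passed both limits, blue bars are medians, and dotted lines mark 0.5 and -0.5. On the left the medians lie below 0 in every group of genes and 10 of 12 mtDNA genes are filled, while no point is filled on the right.

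The 13 mtDNA genes took 4.78%, 4.97% and 4.47% of all counts in the Sham mice, 2.90%, 3.06% and 2.82% in the SCI mice and 3.36%, 3.33% and 3.04% in the SCI+FIPI mice. The 82 nuclear genes took 0.934% ± 0.0052 (SD, n = 3), 0.687% ± 0.025 and 0.747% ± 0.011 in the same groups. In both cases every Sham mouse was above every injured mouse. For the nuclear genes every SCI+FIPI mouse was also above every SCI mouse, while for mtDNA SCI+FIPI mouse 3 fell within the SCI range. Within a mouse the ratio of mtDNA to nuclear counts was 5.08 ± 0.262 (SD, n = 3) in Sham, 4.26 ± 0.284 in SCI and 4.34 ± 0.212 in SCI+FIPI. Its log2 was lower by 0.25 in SCI than in Sham and differed by 0.03 between SCI+FIPI and SCI. The size of the gap between the genomes depended on how gene length and base composition were handled. With offsets for each gene's GC content and exonic length in the fit, the medians in SCI against Sham were -0.48 for nuclear and -0.49 for mtDNA genes. With them 5 mtDNA genes in place of 10 were called lower and 3 nuclear genes in place of 5 higher. Both medians were negative under either handling, and the mtDNA median was the lower one by more than 0.01 only without the offsets.

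**Figure D2:**
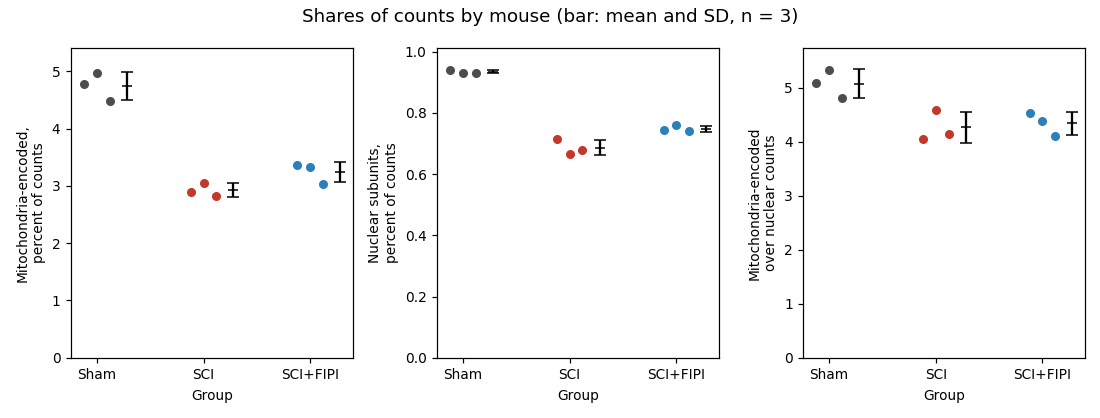
Percent of all counts in the 13 mtDNA genes (left) and in the 82 nuclear genes (middle), and the ratio of both (right), with 1 point per mouse and the mean and SD of 3 mice beside each group. All 3 Sham mice lie above the 6 injured mice in each panel, and the SCI and SCI+FIPI mice overlap in the left and right panels.

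Complex I, the NADH dehydrogenase, had 35 nuclear genes, of which 16 fell, none rose and 19 were not called (median -0.44). All 7 core subunit genes, which carry the flavin and iron-sulfur clusters, had negative log2 fold changes, and 3 of them were called. Among the 28 accessory genes 13 fell. Ndufs1 encodes the largest core subunit. Its level was 104, 96.7 and 109.7 CPM in the Sham mice, 62.8, 65.8 and 55.8 in the SCI mice and 66.1, 69.0 and 64.1 in the SCI+FIPI mice. All 6 injured mice were below the Sham mice, and the SCI and SCI+FIPI ranges overlapped. Its log2 fold change in SCI against Sham was -0.75 ± 0.07 (SE, edgeR adjusted p = 2.38e-07). The accessory gene Ndufb2 fell furthest, with 19.1, 15.8 and 19.7 CPM in the Sham mice, 9.38, 8.22 and 6.70 in the SCI mice and 10.1, 9.57 and 8.55 in the SCI+FIPI mice. This was a log2 fold change of -1.17 ± 0.13 (SE, edgeR adjusted p = 1.86e-06), and no injured mouse reached the Sham range. Ndufv2, a core subunit with an iron-sulfur cluster, fell by 0.70, and the accessory Ndufa5 fell by 0.73.

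A few complex I genes did not follow. Ndufv3, an accessory subunit near the flavin site, had a log2 fold change of 0.17 ± 0.068 (SE, edgeR adjusted p = 0.0404), below the fold limit, with 57.5, 54.9 and 52.1 CPM in the Sham mice, 64.1, 56.0 and 64.9 in the SCI mice and 62.6, 64.4 and 66.9 in the SCI+FIPI mice. Ndufa7 stood at 0.15 ± 0.089 (adjusted p = 0.16 by the same test), and Ndufb7 and Ndufa1 at -0.00064 ± 0.062 and 0.03 ± 0.068. Sham and SCI mice overlapped for each of these 4 genes. The nuclear subunits of this enzyme thus differed in transcript change from -1.17 to 0.17.

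Complex II, succinate dehydrogenase, is the only member of the chain that also belongs to the citric acid cycle, and its 4 genes separated by subunit. Sdha encodes the flavoprotein that oxidises succinate and lies at chr13:74322254-74350280 (GRCm38, minus strand). Its level was 544, 502 and 599 CPM in the Sham mice, 338, 342 and 314 in the SCI mice and 369.9, 371 and 353 in the SCI+FIPI mice. Every injured mouse was below every Sham mouse, and the 3 SCI+FIPI mice were above the 3 SCI mice by a small margin. In SCI against Sham it fell by 0.73 ± 0.071 on the log2 scale (SE, edgeR adjusted p = 3.70e-07). Sdhb, the iron-sulfur subunit, had 102, 101 and 107 CPM in the Sham mice, 94.9, 92.2 and 93.3 in the SCI mice and 93.7, 89.0 and 88.0 in the SCI+FIPI mice. All SCI mice were below all Sham mice, but the log2 fold change of -0.14 ± 0.053 was under the fold limit (edgeR adjusted p = 0.0281). The membrane anchor Sdhc had 101, 99.5 and 97.9 CPM in the Sham mice, 112, 108 and 109.6 in the SCI mice and 105, 107 and 103 in the SCI+FIPI mice, with a log2 fold change of 0.14 ± 0.05 and the SCI mice above the Sham mice (edgeR adjusted p = 0.0203, under the fold limit). The other anchor, Sdhd, had 66.7, 67.5 and 65.3 CPM in the Sham mice, 66.9, 63.7 and 62.5 in the SCI mice and 64.8, 65.8 and 60.8 in the SCI+FIPI mice, with overlapping groups and a log2 fold change of -0.05 ± 0.057.

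In complex III, the cytochrome bc1 complex, 1 of 8 nuclear genes fell and none rose (median -0.27). The called gene was Uqcrc2, a core protein, with 119.5, 121 and 137 CPM in the Sham mice, 84.0, 84.0 and 73.2 in the SCI mice and 87.9, 87.4 and 82.7 in the SCI+FIPI mice. Its groups of Sham and injured mice did not overlap, and its log2 fold change in SCI against Sham was -0.65 ± 0.071 (SE, edgeR adjusted p = 1.33e-06). Uqcrc1, the other core protein, and Uqcrfs1, the Rieske iron-sulfur protein, had log2 fold changes of -0.48 ± 0.062 and -0.48 ± 0.058 with every SCI mouse below every Sham mouse, just short of the fold limit. The small subunit genes Uqcrq and Uqcr11 stood at 0.02 ± 0.059 and 0.01 ± 0.081, with overlapping groups. Of the 8 genes, 4 passed an adjusted p under 0.05 without the fold limit, all of them lower.

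Complex IV, cytochrome c oxidase, held both falling and rising nuclear genes. Of 15 tested, 6 fell and 4 rose, and all 15 passed an adjusted p under 0.05 without the fold limit. Ndufa4, first named for complex I and now assigned to complex IV, lies at chr6:11900292-11907497 (GRCm38, minus strand). Its level was 159, 156 and 153 CPM in the Sham mice, 88.8, 77.3 and 87.2 in the SCI mice and 105, 106 and 98.4 in the SCI+FIPI mice, with no overlap between any of the 3 groups. Its log2 fold change in SCI against Sham was -0.88 ± 0.063 (SE, edgeR adjusted p = 1.38e-08). Cox5a, a subunit on the matrix side, had 46.6, 47.7 and 49.3 CPM in the Sham mice, 32.5, 22.6 and 24.2 in the SCI mice and 29.5, 26.1 and 26.5 in the SCI+FIPI mice and a log2 fold change of -0.86 ± 0.11 (edgeR adjusted p = 1.43e-05). SCI mice 2 and 3 were lower than SCI mouse 1, and all 3 were below Sham. Cox7b and Cox7c fell by 0.63 and 0.55. The call of Cox5b (-0.50) lay at the fold limit and was lost under several alternatives, for example at -0.43 without SCI mouse 2, and that of Cox7c was lost without SCI mouse 2 at -0.46. Cox6a1, Cox6b1, Cox7a2 and Cox8a, the forms used by most tissues, stood between -0.49 and -0.16, below the fold limit.

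The 4 rising genes of complex IV were paralogs of these common forms. Ndufa4l2, known from hypoxia and from pericytes, lies at chr10:127514967-127517154 (GRCm38, plus strand). Its level was 2.68, 4.06 and 3.88 CPM in the Sham mice, 11.1, 13.7 and 12.4 in the SCI mice and 10.2, 10.2 and 9.09 in the SCI+FIPI mice. The groups did not overlap, and the SCI+FIPI mice lay between the other groups. Its log2 fold change in SCI against Sham was 1.80 ± 0.15 (SE, edgeR adjusted p = 8.20e-08). Cox6b2, first described in testis, had 4.36, 4.83 and 3.88 CPM in the Sham mice, 11.6, 10.7 and 16.7 in the SCI mice and 14.0, 11.1 and 12.5 in the SCI+FIPI mice. Every injured mouse was above every Sham mouse, and the log2 fold change was 1.58 ± 0.17 (SE, edgeR adjusted p = 1.77e-06). Cox7a1, the heart and muscle form of subunit VIIa, had 2.30, 3.06 and 2.25 CPM in the Sham mice, 4.06, 3.76 and 4.76 in the SCI mice and 4.11, 3.39 and 4.94 in the SCI+FIPI mice, with a log2 fold change of 0.72 ± 0.2 (edgeR adjusted p = 0.00494) that became 0.46 with offsets for GC content and length.

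Cox6a2, the heart and muscle form of subunit VIa, rested on few counts. It had 15, 37 and 7 counts in the Sham mice, 43, 72 and 41 in the SCI mice and 30, 65 and 37 in the SCI+FIPI mice. SCI was above Sham without overlap, at a log2 fold change of 1.32 ± 0.49 (SE, edgeR adjusted p = 0.0357), and the call was lost without Sham mouse 1 or 3 or SCI mouse 1 or 2 (1.20, 0.89, 1.43 and 1.02). Skeletal muscle markers summed to 15.1 to 65.0 CPM in Sham, 22.2 to 61.5 in SCI and 33.3 to 54.3 in SCI+FIPI, with 1 of 13 tested called higher and 1 lower. Sham mouse 2, the highest of its group for Cox6a2, also had the highest Acta1 of its group (17.6 CPM against 4.12 and 2.67). The part of muscle RNA in these values was not tested. Cox8b, a further muscle form, had 3 to 10 counts in every mouse, Cox7b2 had 0 to 5, and Cox8c had none in any mouse, which allows up to 3 counts each. Endothelial and mural markers summed to 479 to 514 CPM in Sham, 990.0 to 1133 in SCI and 854 to 867 in SCI+FIPI, with 8 of 9 called higher in SCI, and their part in the rise of Ndufa4l2 was not tested.

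Complex V, the ATP synthase, had 17 nuclear genes, of which 6 fell and 1 rose (median -0.38). Atp5b encodes the catalytic beta subunit. Its level was 1134, 1081 and 1178 CPM in the Sham mice, 733, 725 and 659 in the SCI mice and 759, 790.1 and 738 in the SCI+FIPI mice. Every Sham mouse was above every injured mouse, and its log2 fold change in SCI against Sham was -0.68 ± 0.067 (SE, edgeR adjusted p = 4.23e-07). Of the 17 genes, which were taken by symbol, Atp5s, named for coupling factor B, fell furthest and Atp5b next. Atp5s had 17.9, 16.7 and 18.7 CPM in the Sham mice, 8.29, 10.2 and 9.90 in the SCI mice and 10.003, 11.0 and 10.4 in the SCI+FIPI mice. Its log2 fold change in SCI against Sham was -0.91 ± 0.1 (SE, edgeR adjusted p = 2.30e-06). Atp5e, the epsilon subunit, stood at 0.24 ± 0.064 with the SCI mice above the Sham mice, under the fold limit (edgeR adjusted p = 0.00428). Atp5l, the g subunit, did not separate the groups (-0.02 ± 0.098).

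The c ring of ATP synthase, through which protons pass, is made of 1 protein encoded by 3 genes that differ in their targeting sequence, and these genes moved in opposite directions. Atp5g1 had 111, 103 and 113 CPM in the Sham mice, 77.3, 71.3 and 67.8 in the SCI mice and 81.6, 83.5 and 77.3 in the SCI+FIPI mice. Atp5g3 had 197, 188 and 195 CPM in the Sham mice, 141, 136 and 133 in the SCI mice and 148, 143 and 138 in the SCI+FIPI mice. Both were lower in every injured mouse than in every Sham mouse, with log2 fold changes of -0.60 ± 0.064 (edgeR adjusted p = 1.00e-06) and -0.50 ± 0.054 (adjusted p = 1.13e-06 by the same test). The Atp5g3 call lay at the fold limit and was lost under 9 alternatives, with values from -0.48 to -0.50. Atp5g2, at chr15:102662864-102672352 (GRCm38, minus strand), had 45.5, 52.4 and 48.1 CPM in the Sham mice, 70.5, 68.7 and 76.6 in the SCI mice and 70.1, 64.3 and 64.8 in the SCI+FIPI mice. Here every injured mouse was above every Sham mouse, at 0.56 ± 0.069 (SE, edgeR adjusted p = 3.97e-06), and with upper-quartile factors the value of 0.50 was no longer called.

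**Figure D3:**
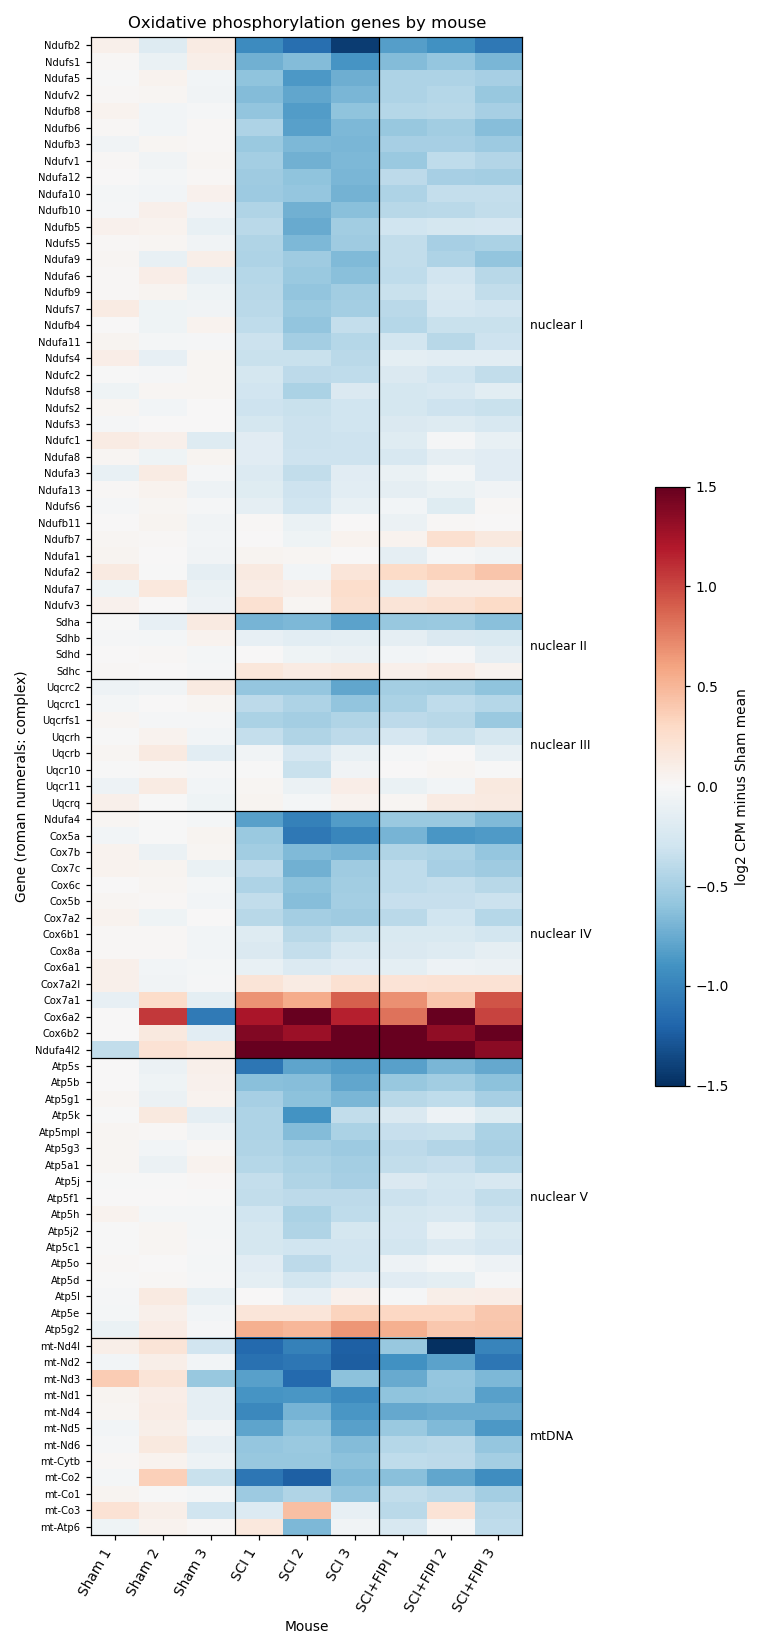
Log2 CPM minus the Sham mean of the 91 tested genes (rows, by complex and genome) in each of the 9 mice (columns). The colour scale ends at 1.5 and -1.5, so stronger values share the end colours. Most rows turn blue from Sham to SCI, and the rows of Ndufa4l2, Cox6b2, Cox6a2 and Cox7a1 turn red.

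Because a paralog can replace its partner in the complex, the level of each paralog was also set against its partner, both per exonic length. Ndufa4l2 stood at 2.14%, 3.30% and 3.22% of Ndufa4 in the Sham mice, 15.9%, 22.4% and 18.0% in the SCI mice and 12.3%, 12.2% and 11.7% in the SCI+FIPI mice. No groups overlapped, and the ratio was 6.54-fold higher in SCI than in Sham and 0.649 times the SCI value in SCI+FIPI (exact two-sided permutation p = 0.1 for each, the lowest possible). Cox6b2 rose from 2.41% to 2.88% of Cox6b1 in Sham to 7.96% to 12.7% in SCI, and Cox7a1 from 5.39% to 7.77% of Cox7a2 to 12.97% to 16.7%, with the SCI+FIPI mice overlapping the SCI mice in both pairs. Atp5g2 reached 120% to 149% of Atp5g1 in Sham, 267% to 332% in SCI and 226% to 252% in SCI+FIPI, and no groups overlapped. Exonic length joins all annotated exons of a gene, 4912 bases for Atp5g1 and 1675 for Atp5g2, and the level of this percent depends on it. By counts alone Atp5g2 lay below Atp5g1 in every Sham mouse (950, 1214 and 1151 against 2321, 2388 and 2718). Cox7a2l, a factor that joins complexes III and IV, stood at 132% to 136% of Cox7a2 in Sham and 206% to 228% in SCI. In each of these pairs the log2 fold change from Sham to SCI was negative for the partner and positive for the paralog.

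**Figure D4:**
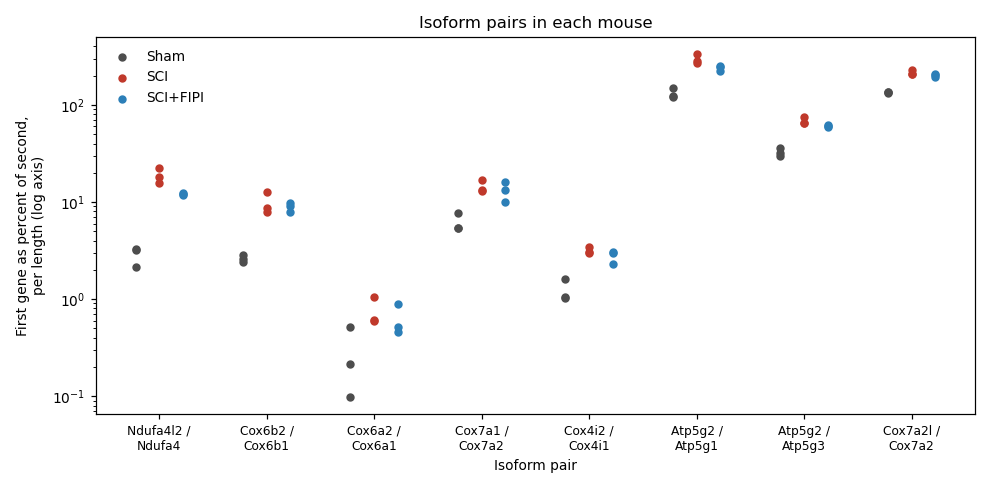
Level of the first gene of each pair as a percent of the second, both per exonic length, on a log axis, with 1 point per mouse. The SCI points lie above the Sham points in all 8 pairs, and for Ndufa4l2 over Ndufa4 the 3 SCI+FIPI points lie between 11.7% and 12.3%, under the SCI points.

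MtDNA holds 13 protein genes, which encode 7 subunits of complex I, cytochrome b of complex III, 3 subunits of complex IV and 2 of complex V. All but mt-Nd6 lie on the same strand, and each strand is transcribed as long precursors that are then cut. Copies of mtDNA in nuclear chromosomes can share their sequence, so the share of each gene's 50-base stretches found in any other annotated gene was counted. Sequence outside annotated genes was not searched, so a share of 0 does not mean that a gene is unique in the genome. The share was 0 for mt-Nd1, mt-Nd6, mt-Cytb and mt-Atp8, 7.61% for mt-Nd5, 8.19% for mt-Nd2, 51.1% for mt-Co1 and 62.2% for mt-Nd4. For mt-Co2, mt-Co3, mt-Atp6, mt-Nd3 and mt-Nd4l it was 98.0% to 100%. Among the nuclear subunit genes it did not pass 39.7%.

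The 5 genes with nearly full sharing match a run of annotated pseudogenes on chromosome 1. The first 60 bases of mt-Co2 (chrM:7013-7696) and mt-Nd3 (chrM:9459-9806) and of their copies Gm28661 (chr1:24614885-24615565, minus strand) and Gm28438 (chr1:24612775-24613119, minus strand) are shown because most reads from them would match both places:
mt-Co2: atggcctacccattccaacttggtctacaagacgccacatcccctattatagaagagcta
Gm28661: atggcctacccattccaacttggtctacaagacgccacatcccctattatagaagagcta
mt-Nd3: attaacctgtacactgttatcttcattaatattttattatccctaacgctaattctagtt
Gm28438: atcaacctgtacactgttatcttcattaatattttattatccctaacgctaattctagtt
Each copy is 1 to 3 bases shorter than its gene. Over all bases that could be aligned, mt-Co2, mt-Co3, mt-Atp6 and mt-Nd4l are identical to their copies, and mt-Nd3 differs from its copy by T3C alone, counted from the first base of the gene.

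These 5 genes also had far fewer counts than the rest. The 7 other tested mtDNA genes had 13141 to 470246 counts per mouse, while mt-Co2 had 824 to 2370, mt-Co3 514 to 1003, mt-Atp6 385 to 680, mt-Nd3 36 to 95 and mt-Nd4l 15 to 56. Of the counts on mt-Co2 and its copy together, 35.7% to 65.6% lay on mt-Co2, and the share was 20.1% to 40.6% for mt-Atp6. How reads that match several places were counted is not given in the sources used here, so the levels of these 5 genes are uncertain. The gene mt-Atp8 had at most 19 counts in any mouse. It lies between mt-Co2 and mt-Atp6, whose copies Gm28661 and Gm10925 are neighbours on chromosome 1. Whether it has an unannotated copy there was not tested, so its level is uncertain too.

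**Figure D5:**
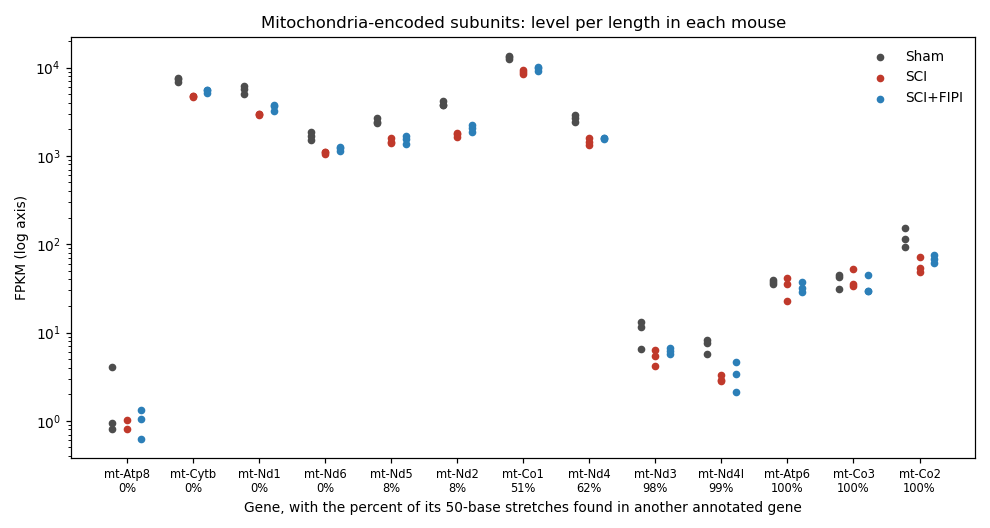
Level of the 13 mtDNA genes in each mouse as FPKM (counts scaled to library size and exonic length, log axis), ordered by the percent of 50-base stretches found in another annotated gene, which stands under each name. The 5 genes at 98% or more and mt-Atp8 lie far below the other 7, and 1 SCI mouse with 0 counts of mt-Atp8 cannot be drawn on the log axis.

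The 7 well-covered mtDNA genes all fell in SCI against Sham. Among them mt-Nd2, a membrane subunit of complex I, changed most, with 3919, 4283 and 3923 CPM in the Sham mice, 1862, 1912 and 1719 in the SCI mice and 2159.6, 2306 and 1901 in the SCI+FIPI mice. Its log2 fold change was -1.14 ± 0.082 (SE, edgeR adjusted p = 1.64e-08), and no injured mouse came near the Sham range. The ubiquinone-side subunit mt-Nd1 (chrM:2751-3707) had 5502, 5753 and 4882 CPM in the Sham mice, 2909.5, 2920.1 and 2786 in the SCI mice and 3534, 3548 and 3059 in the SCI+FIPI mice. Here the 3 groups did not overlap, with SCI+FIPI between SCI and Sham, and the fall in SCI was 0.91 ± 0.083 on the log2 scale (SE, edgeR adjusted p = 1.80e-07). The proton-pumping subunits mt-Nd4 and mt-Nd5 had log2 fold changes of -0.84 ± 0.084 and -0.74 ± 0.088. The light-strand gene mt-Nd6 had 858, 958 and 797 CPM in the Sham mice, 581, 589 and 554 in the SCI mice and 643, 658 and 581 in the SCI+FIPI mice. Its log2 fold change was -0.60 ± 0.077. The strand setting of the counting is not given, so reads from either strand over this gene cannot be told apart.

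Cytochrome b, the only mtDNA subunit of complex III, had 8397, 8566 and 7842 CPM in the Sham mice, 5581, 5568 and 5376 in the SCI mice and 6367, 6306 and 5794 in the SCI+FIPI mice, again with no overlap between the 3 groups. Its log2 fold change in SCI against Sham was -0.59 ± 0.071 (SE, edgeR adjusted p = 3.75e-06). The catalytic oxidase subunit mt-Co1 was the most abundant, with 20618, 20086 and 19632 CPM in the Sham mice, 13771, 14736 and 13383 in the SCI mice and 15545, 15251 and 14125 in the SCI+FIPI mice. It changed least of the 7, at -0.53 ± 0.074 (SE, edgeR adjusted p = 1.63e-05), and without SCI mouse 3 its value of -0.49 missed the fold limit. With offsets for GC content and length, mt-Co1, mt-Cytb, mt-Nd5 and mt-Nd6 of the 7 moved to between -0.50 and -0.24 and were not called, and the signs stayed negative.

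Among the 5 genes with copies, mt-Co2, mt-Nd3 and mt-Nd4l were called lower at -1.003 ± 0.21, -0.93 ± 0.25 and -1.23 ± 0.29. The ATP synthase subunit mt-Atp6 and the oxidase subunit mt-Co3 were not called (-0.15 ± 0.19 and 0.06 ± 0.25), and Sham and SCI overlapped. When the counts of each gene and its chromosome 1 copy were added before fitting, an alternative chosen after seeing the data, mt-Atp6 was at -0.82 and called (edgeR adjusted p = 9.57e-05), mt-Co3 was at -0.20 and not called, and 11 of 12 mtDNA genes were lower. The 2 mitochondrial ribosomal RNAs, which lie on the same strand upstream of these genes, also fell, mt-Rnr1 by 1.43 and mt-Rnr2 by 1.58. These counts come from libraries enriched for mRNA with oligo(dT) beads and need not follow the level of ribosomal RNA.

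With FIPI, no subunit gene passed both limits against SCI mice given vehicle. Of the 91 genes tested, 0 were called by edgeR, DESeq2 or limma-voom, where 3.06% of all genes tested were called, 2.36% higher and 0.695% lower. Most values nevertheless lay slightly above 0. The log2 fold change was positive in 78 of 91 genes, where 49.7% of all genes tested were positive, and the medians were 0.11 for nuclear and 0.14 for mtDNA genes. At an unadjusted p under 0.05, 24 were higher and 1 lower, where 13.7% of all genes were higher and 11.5% lower. All 3 SCI+FIPI mice were above all 3 SCI mice in 32 genes and below them in 3, where groups of all genes did not overlap in 15.7% and 14.5%. The genes are not independent of each other, so the count of positive values carries no test. Neuron markers also stood higher in SCI+FIPI than in SCI, with 7 of 16 called and a median of 0.51, and their part in the subunit values was not tested.

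At an adjusted p under 0.05 without the fold limit, 7 of the 91 members tested were higher, all of them nuclear, and none was lower. The share called higher lay near the background, in which 6.04% of all genes tested were higher and 3.58% lower. The 7 genes were Ndufa4 of complex IV, Ndufa5, Ndufa10, Ndufb5 and Ndufv2 of complex I, and Atp5j and Atp5o of complex V, with log2 fold changes of 0.19 to 0.29. For Ndufa4 the SCI+FIPI mice were at 105, 106 and 98.4 CPM and the SCI mice at 88.8, 77.3 and 87.2, a log2 fold change of 0.29 ± 0.063 (SE, edgeR adjusted p = 0.0126). For Ndufb5 they were at 38.1, 39.2 and 39.3 against 35.4, 27.6 and 32.6 CPM, at 0.29 ± 0.086 (SE, edgeR adjusted p = 0.0498). The groups did not overlap in either gene, and the injured mice of both groups stayed under the Sham mice. Atp5o and Atp5j share 34.9% and 20.2% of their 50-base stretches with other annotated genes, so part of their counts is uncertain. The count of 7 fell to 0 without SCI mouse 2 or without SCI+FIPI mouse 2, to 1 when only the 6 injured mice were fitted, and rose to 15 without SCI mouse 1.

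Among the genes at the ends of each complex, Atp5k, the e subunit of ATP synthase, had the highest log2 fold change at 0.41 ± 0.12 (SE, edgeR adjusted p = 0.0508). Its level was 21.8, 24.1 and 19.8 CPM in the Sham mice, 15.8, 11.7 and 16.9 in the SCI mice and 18.8, 20.7 and 19.3 in the SCI+FIPI mice, and without SCI mouse 3 it was called at 0.51. Uqcr10 and Uqcrh of complex III stood at 0.13 ± 0.074 and 0.12 ± 0.055, and Cox5b at 0.16 ± 0.066. Of the nuclear genes the lowest values were those of Ndufa4l2 (-0.34 ± 0.14), Cox6a2 (-0.20 ± 0.45), Ndufa7 (-0.12 ± 0.089) and Atp5g2 (-0.12 ± 0.068). The next lowest in complexes I and V were Ndufa1 (-0.10 ± 0.068) and Atp5c1, the gamma subunit (0.04 ± 0.051), and the lowest of complex III were Uqcr11 (-0.0011 ± 0.081) and Uqcrfs1 (0.03 ± 0.059). For Ndufa4l2 all SCI+FIPI mice were under all SCI mice (edgeR adjusted p = 0.144, not called). In complex II, Sdha and Sdhb stood at 0.14 ± 0.07 and -0.05 ± 0.053, Sdhc at -0.06 ± 0.05 and Sdhd at -0.01 ± 0.057. In mtDNA the values of the 7 well-covered genes ran from 0.05 (mt-Nd5) to 0.24 (mt-Nd1), all positive, with edgeR adjusted p of 0.085 for mt-Nd1 and larger for the others. Of the 5 genes with copies, mt-Co3 and mt-Atp6 were negative (-0.24 ± 0.25 and -0.06 ± 0.19), and mt-Co2, mt-Nd3 and mt-Nd4l were positive (0.20 ± 0.21, 0.19 ± 0.26 and 0.15 ± 0.32), with overlapping groups in each. With offsets for GC content and length, mt-Nd4 and mt-Nd5 stood at -0.01 and -0.03.

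SCI+FIPI mice still differed from Sham mice, in a comparison that shares the Sham mice with SCI against Sham and the SCI+FIPI mice with the previous one. Of the 79 nuclear genes tested 11 fell (13.9%) and 3 rose, and of the 12 mtDNA genes tested 7 fell (58.3%). Of all genes tested 17.0% were called lower and 21.2% higher, so the nuclear shares did not exceed the background and the mtDNA share called lower did. The nuclear count of 11 became 23 with offsets for GC content and length and 17 with upper-quartile factors, so the reading of the nuclear share called lower depended on the fit. The medians were -0.28 and -0.68. Without the fold limit, 50 nuclear genes were lower and 9 higher at an adjusted p under 0.05, where 29.0% and 30.1% of all genes were. Among nuclear genes of complex I the lowest values were those of Ndufb2 (-0.95 ± 0.13) and Ndufs1 (-0.64 ± 0.07) and the highest those of Ndufa2 (0.34 ± 0.079) and Ndufv3 (0.24 ± 0.068). Sdha stood at -0.59 ± 0.071 and Uqcrc2 at -0.55 ± 0.071, both called. Uqcrfs1, Uqcr10 and Uqcrq stood at -0.45 ± 0.058, 0.01 ± 0.074 and 0.09 ± 0.058. In complex IV, Cox5a stood at -0.81 ± 0.11 and Ndufa4 at -0.59 ± 0.062, with Cox6b2 at 1.53 ± 0.17 and Ndufa4l2 at 1.47 ± 0.15 the highest. In complex V, Atp5s and Atp5b were lower (-0.76 ± 0.1 and -0.57 ± 0.067), while Atp5g2 at 0.45 ± 0.069 and Atp5e at 0.34 ± 0.063 did not pass the fold limit. The mtDNA genes called were mt-Nd1, mt-Nd2, mt-Nd3, mt-Nd4, mt-Nd4l, mt-Nd5 and mt-Co2, from -0.67 to -1.07, and mt-Nd3 lost its call without Sham mouse 1 or 2 or SCI+FIPI mouse 1 or 3 (-0.74 to -0.54). With the copies added, mt-Co2 was at -0.45 and not called and mt-Atp6 at -0.62 and called (edgeR adjusted p = 0.000896), so that 7 genes were again lower. SCI+FIPI mouse 1 held 2069 counts of the copy Gm28661 where the other 2 mice of its group held 830 and 796.

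Genes close to the chain but outside the symbol rule were also mostly lower. Of 10 tested, 6 fell and 1 rose in SCI against Sham, where 22.5% of all genes tested were called lower and 24.4% higher. Cyc1, cytochrome c1 of complex III, had 156, 145 and 153 CPM in the Sham mice, 109, 101 and 101 in the SCI mice and 109.8, 118 and 121 in the SCI+FIPI mice and a log2 fold change of -0.55 ± 0.06 (SE, edgeR adjusted p = 1.24e-06). Cycs, the electron carrier cytochrome c, had 104, 102 and 112 CPM in the Sham mice, 63.9, 65.6 and 64.1 in the SCI mice and 71.9, 69.6 and 63.2 in the SCI+FIPI mice and fell by 0.72. In both genes every injured mouse was below every Sham mouse. The inhibitor of ATP synthase, Atpif1, was called at -0.50 although Sham and SCI overlapped. The oxidase subunit Cox4i1 stood at -0.34 ± 0.069, below the fold limit, and its paralog Cox4i2, tied to hypoxia, rose by 1.04 ± 0.24 (edgeR adjusted p = 0.0014) from 1.02% to 1.62% of Cox4i1 in Sham to 2.97% to 3.48% in SCI per length. Higd1a, a small protein bound to complex IV, and Fmc1, which serves ATP synthase assembly, were called at -0.86 ± 0.075 and -0.73 ± 0.12. Ndufab1, the acyl carrier protein of complex I, stood at -0.27 ± 0.087.

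Genes that build or express the chain were read against the same background, in which 22.5% of all genes tested were called lower and 24.4% higher. Of 44 tested assembly factors 11 fell, a share near that background, and 1 rose. The largest falls were those of Sdhaf3 (-1.25), Atpaf1 (-1.24) and Lyrm7 (-1.09), which serve complexes II, V and III. Of 30 genes for replication and expression of mtDNA 4 fell, a smaller share than in the background, and 1 rose. Tfam, which packs and transcribes mtDNA, had 36.9, 38.5 and 38.5 CPM in the Sham mice, 26.4, 24.5 and 24.3 in the SCI mice and 29.7, 28.5 and 25.4 in the SCI+FIPI mice and fell by 0.60, and the RNA-binding stabiliser Lrpprc fell by 0.75. Fastkd2, of the mitochondrial ribosome's assembly, and Gfm1, a mitochondrial translation factor, stood at -0.73 ± 0.077 and -0.68 ± 0.086, both called. Every injured mouse was below every Sham mouse for Tfam. The mitochondrial RNA polymerase Polrmt stood at -0.22 ± 0.069, under the fold limit. Citric acid cycle and pyruvate dehydrogenase genes, which feed electrons to the chain, fell in 9 of 18 and rose in 2, with Sucla2 at -1.08, Idh3a at -0.98 and Dlat at -0.90. No gene of these 3 lists was called in SCI+FIPI against SCI.

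Of 18 nuclear regulators of mitochondrial biogenesis, 5 were called lower and 5 higher in SCI against Sham. Both shares lay near those of all genes tested, 22.5% lower and 24.4% higher. Ppargc1a, the coactivator PGC-1alpha, had 39.1, 39.6 and 42.9 CPM in the Sham mice, 14.7, 16.5 and 14.8 in the SCI mice and 19.5, 20.1 and 20.4 in the SCI+FIPI mice. No groups overlapped, and its log2 fold change was -1.40 ± 0.078 in SCI against Sham (SE, edgeR adjusted p = 1.41e-09) and 0.38 ± 0.08 in SCI+FIPI against SCI (edgeR adjusted p = 0.0111, under the fold limit). Its relative Ppargc1b fell by 1.21 and the nuclear receptors Esrrg and Esrrb by 1.91 and 1.90, while Esrra stood at -0.45 ± 0.069. Pparg and Ppard, of the same receptor superfamily, rose by 1.78 and 0.77, and the hypoxia factor Hif1a rose by 0.53. Nrf1, which binds the promoters of many subunit genes, had 23.6, 22.2 and 21.8 CPM in the Sham mice, 26.4, 29.7 and 29.8 in the SCI mice and 23.3, 23.2 and 24.5 in the SCI+FIPI mice, with every SCI mouse above every Sham mouse and a log2 fold change of 0.35 ± 0.077 under the fold limit (edgeR adjusted p = 0.00114). Gabpa, an ETS factor with the same reputation, stood at 0.44 ± 0.083. In SCI+FIPI against SCI, Nrf1 and Gabpa stood at -0.28 ± 0.077 and -0.24 ± 0.082, neither called.

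The promoters of the nuclear subunit genes were searched for the sites of such factors. Windows of 250 bases before the transcript start were given by RefSeq (GRCm38.p6) for 66 of the 82 nuclear genes, in 71 windows. The NRF1 motif, GCGC and TGCGC with any 1 base between them, read on both strands, was found in 14 of these windows (19.7%) against 3.74% of all 32851 windows of that length. The ETS motif CCGGAAG was found in 16.9% against 6.91% and the hypoxia core ACGTG in 19.7% against 16.6%, and matches of different motifs did not overlap in any window of a subunit gene. The 13 genes with the NRF1 motif had a median log2 fold change of -0.38 in SCI against Sham, the same as the nuclear genes as a whole. Of the 13, 4 were called lower and 1 higher, where 22.5% and 24.4% of all genes tested were. The matches of the 5 called genes and of Sdhd, whose groups overlapped, are shown with the motif in capitals, 5′ to 3′ on the strand of the gene:
Sdha, chr13:74350319-74350348: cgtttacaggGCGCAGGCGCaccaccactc
Sdha, chr13:74350276-74350305: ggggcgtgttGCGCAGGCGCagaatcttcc
Sdha, chr13:74350241-74350260: gcgactcggtGCGCAAGCGC
Ndufa5, chr6:24527697-24527726: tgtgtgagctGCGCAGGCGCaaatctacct
Ndufs5, chr4:123718265-123718294: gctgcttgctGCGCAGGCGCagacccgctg
Atp5k, chr5:108434430-108434459: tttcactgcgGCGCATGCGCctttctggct
Atp5g2, chr15:102671070-102671099: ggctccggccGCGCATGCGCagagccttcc
Sdhd, chr9:50603909-50603938: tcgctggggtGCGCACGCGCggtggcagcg
All lie on the minus strand. Atp5k and Atp5g2 carry the same 10 bases and moved in opposite directions, by -0.57 and 0.56 on the log2 scale. A match describes the letters of the window only, and the part of these sites in the changes was not tested.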

How the data were processed

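The authors deposited a table of raw read counts per gene for 9 mice, without normalization. Whole numbers fill the table. The paper states that oligo(dT) beads were used to enrich mRNA before library preparation. Per the labels' processing notes the genome build was GRCm38 and R 4.2.3 was used. The aligner, the counting program, its strand setting and its handling of reads that match several places are not given in the sources used here. Identifiers were matched to GENCODE M21 (52403 of 52550), which gave symbols, positions and exonic length, the joined length of all annotated exons of a gene. Shared sequence was measured on the longest transcript of each gene, as the percent of its 50-base stretches that also occur in a transcript of any other gene.

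Tests used edgeR 4.0.16 under R 4.3.3 (TMM factors, filterByExpr by group, 18699 genes, robust quasi-likelihood fit with 1 mean per group on all 9 mice, biological coefficient of variation 9.30%). The limits follow the study's methods, which name no test. CPM were counts divided by the mouse's total times its TMM factor. FPKM were counts divided by the total, without that factor, and by exonic length. Single values and paralog ratios (0.5 added to each count) were compared by exact two-sided permutation tests. Totals of 20806000 to 24582377 counts limit precision mainly for genes with few counts. Simulated data with planted changes were used to test the fit. Counts of mice in the same group differed by more than sampling noise (chi-square of 6.76 to 13.2 per gene).

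The members, the gene lists and the tests were chosen with earlier results of these data known. Named genes were all mtDNA and complex II genes, in each comparison and each other complex the 2 nuclear genes with the highest and the 2 with the lowest fold change, tissue paralogs with their partners, genes failing the filter and, of each further list, the largest calls, with marker lists given mostly as counts and sums. Other genes named for illustration (such as Ndufv2, Ndufb7 and Cox7c) were chosen after their values were seen. Alternatives tried were other scaling (RLE, upper-quartile, TMM without mtDNA genes), other filters (none, or 10 counts in each mouse), a block for replicate number, GC and length offsets, DESeq2 1.42.0, limma-voom 3.58.1, edgeR on the groups compared, other fold limits and leaving out each mouse. Adding mtDNA genes to their chromosome 1 copies was chosen after seeing the data. Figures were drawn with matplotlib 3.10.9.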

Additional observations from a re-analysis of the deposited data

How the results depend on the processing

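Counts of called genes moved mainly with the fold limit. With an adjusted p under 0.05 and no fold limit, the nuclear genes called lower and higher numbered 58 and 9 in SCI against Sham, 50 and 9 in SCI+FIPI against Sham, and 7 were higher in SCI+FIPI against SCI. With a limit of 1 on the log2 fold change, SCI against Sham kept 1 nuclear gene lower and 3 higher and 3 mtDNA genes lower, and SCI+FIPI against Sham had 0 nuclear genes lower and 2 higher and 1 mtDNA gene lower. GC and length offsets gave 3 nuclear genes higher, medians of -0.48 (nuclear) and -0.49 (mtDNA) and 5 mtDNA genes lower in SCI against Sham, and 23 nuclear genes lower with medians of -0.39 and -0.48 in SCI+FIPI against Sham. Upper-quartile factors gave nuclear medians of -0.45 and -0.32 in these comparisons and 17 nuclear genes lower in SCI+FIPI against Sham. The log2 ratio of mtDNA to nuclear counts, SCI against Sham, was -0.35 per length, -0.36 without genes sharing over 50% of their stretches and -0.42 as a mean of log2 CPM, which also gave -0.42 for SCI+FIPI against Sham. The cause of these differences was not tested.

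Leaving out 1 mouse gave 21 to 33 nuclear and 9 to 10 mtDNA genes lower in SCI against Sham, 0 to 1 nuclear genes higher in SCI+FIPI against SCI (1 without SCI mouse 3), and 3 to 5 nuclear genes higher in SCI+FIPI against Sham (5 without Sham mouse 2). Of 4910 values of single genes under the alternatives, 76 lost and 83 gained a call and 0 called values changed sign.

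The replicate numbers shared by the groups mark different animals, and deviations of same-numbered mice correlated at -0.072 to 0.109, so they were not treated as pairs. With the replicate block 30 nuclear and 10 mtDNA genes were lower in SCI against Sham, 0 members were called in SCI+FIPI against SCI (1 in place of 7 at an adjusted p under 0.05), and 22 in place of 21 were called in SCI+FIPI against Sham. GC and length offsets with the replicate block gave medians of -0.48 and -0.49 and 5 mtDNA genes lower in SCI against Sham, and -0.39 and -0.47 with 23 nuclear genes lower in SCI+FIPI against Sham. Few counts limit Cox6a2, mt-Nd3 and mt-Nd4l. Nearly full sharing limits 5 mtDNA genes, and mt-Co1 and mt-Nd4 share over 50%.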

Other observations

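Ribosomal proteins of the cytosol and of the mitochondrion, both encoded in the nucleus, differed from the subunits and from each other. In SCI against Sham 68 of 77 tested cytosolic ribosomal protein genes rose and none fell (median 0.87), and their summed level was 9383 to 10613 CPM in Sham and 17864 to 19487 in SCI. Of 77 mitochondrial ribosomal protein genes 1 rose and 4 fell (median -0.04), with sums of 1946 to 1983 and 1849 to 1925 CPM. The RNAs of the mitochondrial ribosome took 0.393% to 0.517% of counts in Sham, 0.141% to 0.159% in SCI and 0.165% to 0.179% in SCI+FIPI. The libraries were enriched for mRNA with oligo(dT) beads, so these shares need not follow the level of ribosomal RNA. Many cytosolic ribosomal protein genes have near-identical pseudogenes, so their counts are uncertain. No gene of these 3 groups was called in SCI+FIPI against SCI.

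Single transporters of the inner membrane and single antioxidant enzymes changed strongly in SCI against Sham. Neither list was called more often than all genes tested, of which 47.0% were called in either direction. Ucp2, an uncoupling protein that is abundant in macrophages, rose by 2.90 on the log2 scale, Slc25a20, the carnitine carrier, rose by 0.81, and Slc25a12, the aspartate and glutamate carrier of neurons, fell by 1.05. Of 19 carriers tested 2 rose and 6 fell, where 24.4% of all genes tested were called higher and 22.5% lower. Of 10 antioxidant genes Gpx1 rose by 1.87, while Sod2, the superoxide dismutase of the matrix, fell by 1.02 and Glrx2 by 0.65. None was called in SCI+FIPI against SCI.

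Of the other marker lists in SCI against Sham, astrocyte markers rose in 3 and fell in 2 of 8, fibroblast markers rose in 7 of 7, ependymal markers fell in 1 of 5, Fabp4 of 2 tested brown fat markers rose, and none of 6 red cell or 7 bone and marrow markers was called. Ucp1, which defines brown fat, had at most 0.239 CPM in any mouse. In SCI+FIPI against SCI, Cd74 and Rgs5 fell and the bone gene Bglap rose by 2.28, and bone and marrow markers summed to 6.95 to 8.13 CPM in SCI and 8.44 to 34.4 in SCI+FIPI.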
